A study of Oryctolagus cuniculus with 16 samples.

Results

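The comparison set the vaginal wall beside a graft carrying tissue particles, called PLATE, against the wall beside a graft with none, called acellular, over all genes of the deposited count table. Its members are 7 of the 16 libraries of the series, chosen by the treatment label: PLATE 1, 5, 9 and 13, and acellular 6, 8 and 10, each number being an animal. All animals were female New Zealand White rabbits of 17 to 19 weeks, and both kinds of graft were sampled 10 mm away from the graft zone. By the labels, the acellular group shares the sampling distance with PLATE and lacks the tissue particles. Whether the surgery and the graft were otherwise the same cannot be told from the labels. The title calls the PLATE procedure autologous micrografting. The other libraries, 3 of sham-operated rabbits and 6 of rabbits with no surgery (control), entered the fit for the spread between animals, and their levels are given as ranges where they help to place a gene. The labels give no time after surgery, no material of the graft and no size or number of the particles, and the tissue at the graft itself was not sampled here. The study asks how the vagina heals after surgery around an autologous micrograft as opposed to an acellular graft.

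The vaginal wall consists of an epithelium, a connective tissue layer rich in collagen and elastic fibres, and a coat of smooth muscle with vessels and nerves. Much of the rabbit vagina is lined by columnar secretory and ciliated cells. A wound in such a wall passes from inflammation, with neutrophils and macrophages, through the deposition of a provisional matrix by fibroblasts, to remodelling, in which collagens are processed, crosslinked and cut by metalloproteinases. In micrografting, small pieces of the host's own tissue are placed on a wound or carrier so that cells can grow out of them.

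The 7 graft libraries held 15348880 to 22058343 counts on named genes. Counts on named genes, the share of counts on genes without a symbol, the mitochondrial share, the number of genes with a count and the share of the 10 highest genes gave 2-sided exact permutation p-values of 0.286 to 0.571 between the groups, all at 0.571 after adjustment over these 5 measures, where the smallest p that 4 against 3 libraries allow is 0.0286. PLATE 1 stood apart. It was the highest of the 7 libraries for 3578 of 10942 genes tested (32.7%) and the lowest for 3584 (32.8%), and acellular 6 came next with 20.7 and 21.6%. Across genes, the Spearman correlation of PLATE 1 with each of the other 6 ran from 0.827 to 0.881, against 0.937 to 0.984 among those 6. The labels give no reason to leave the library out, so every value below is given with it and, where that changes what is seen, without it.

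Levels are in CPM, the counts of a gene in 1000000 counts on named genes, with library sizes scaled by edgeR, and bring no correction for gene length, so they are compared between libraries and never between genes. Values of single libraries follow the order acellular 6, 8 and 10, then PLATE 1, 5, 9 and 13. A positive log2 fold change means a higher level in PLATE, the figure after its ± is the standard error of the edgeR fit. In tissue RNA such as this, fewer cells of a type and less RNA per cell cannot be told apart.

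No gene passed an adjusted p of 0.05 in edgeR, a called share of 0% of 10942 genes, and the smallest adjusted p was 0.875. At an unadjusted p under 0.05 there were 515 genes, where 547 would be expected if no gene differed. Of these, 395 (3.61% of genes tested) were higher and 120 (1.10%) lower in PLATE. That balance depended on the tool and the libraries, with 644 higher and 511 lower by voom, and 167 higher and 212 lower with PLATE 1 and acellular 10 left out together. The 4 PLATE libraries all lay above the 3 acellular ones for 358 genes (3.27%) and all below for 186 (1.70%). Without PLATE 1 the called share was again 0% and the smallest adjusted p was 1.00. At an unadjusted p under 0.05 it left 176 genes of 10910 tested, 0.990% higher and 0.623% lower, where 546 would be expected. Groups of 3 against 3 then did not overlap for 581 genes (5.31%) upward and 321 (2.93%) downward. Both fits shared 85 of the higher genes, 21.5% of the 395, and 42 of the lower genes, 35% of the 120.

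DESeq2 passed 1 gene, P2RX1, with an adjusted p of 0.00175, and 0.0378 without PLATE 1; limma with voom weights passed 0 genes in either fit. At an unadjusted p under 0.05, DESeq2 gave 640 genes and voom 1155. The median log2 fold change over all genes tested was 0.02, and 52.4% of genes were higher in PLATE, so a list of genes is read against these values. Genes named below are values, not calls. P2RX1 was called by DESeq2 alone, and its adjusted p was 0.875 in edgeR and 0.4405 in voom.

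**Figure D1:**
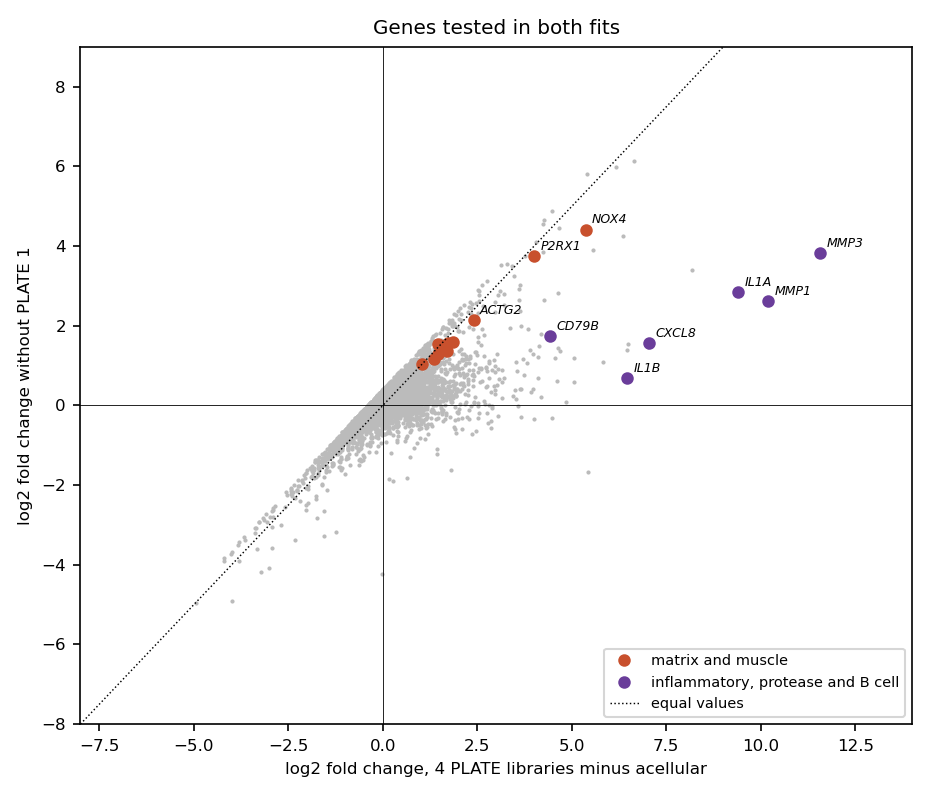
Log2 fold change of PLATE over acellular for each of the 10909 genes tested in both fits, with all 4 PLATE libraries (horizontal) and without PLATE 1 (vertical); points on the dotted line have equal values. Of the matrix and muscle genes marked, P2RX1 (4.00 and 3.76) and ACTG2 (2.40 and 2.14) lie near the line, whereas IL1B (6.47 and 0.70) and MMP1 (10.19 and 2.62) lie far below it. Only a selection of genes is marked. Matrix genes left unmarked, such as COL11A1 (6.46 and 1.39) and COL5A3 (3.80 and 1.06), also lie far below the line.

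The 12 genes with the smallest p among those whose PLATE libraries all lay above the acellular ones, in the same direction without PLATE 1, were led by P2RX1. It encodes an ATP-gated cation channel of smooth muscle and platelets. P2RX1 stood at 0.182, 0.403 and 1.28 CPM in the acellular libraries and at 14.9, 12.9, 3.77 and 8.95 CPM in PLATE. These levels rest on 4, 6 and 26 counts against 231, 295, 72 and 182. Separation of the libraries was a condition for naming these genes. The group means of P2RX1 were 10.1 ± 4.92 CPM (SD, n = 4) in PLATE and 0.623 ± 0.582 CPM (SD, n = 3) in the acellular group. On the log2 scale the fold change was 4.00 ± 0.891, and 3.76 ± 0.913 without PLATE 1. Sham libraries lay between 3.78 and 9.17 CPM and controls between 3.00 and 35.5 CPM, so it was the acellular libraries that lay below all the rest. SLC17A9, the vesicular transporter that loads ATP for release, had 3, 0 and 5 counts in the acellular libraries and 171, 27, 12 and 23 counts in PLATE. PLATE 1 was by far its highest library, and the log2 fold change of 4.64 ± 1.34 was 2.82 ± 1.08 without it. Beside them, the capsaicin receptor gene TRPV1 had 3, 2 and 2 counts against 7, 15, 6 and 23, with a log2 fold change of 2.32 ± 0.695, and 2.45 ± 0.732 without PLATE 1.

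A further group of these genes belongs to the matrix and its makers. ADAMTS2, the protease that trims the amino end of fibrillar procollagens, stood at 24.9, 22.0 and 17.6 CPM in the acellular libraries and at 115.5, 42.9, 42.0 and 80.1 CPM in PLATE. The log2 fold change of ADAMTS2 was 1.70 ± 0.421, or 1.35 ± 0.391 without PLATE 1. FNDC1, a secreted protein with fibronectin type III domains, stood at 42.9, 30.6 and 21.5 CPM against 137, 44.1, 115.7 and 80.0 CPM, where PLATE 5 was barely above acellular 6. Its log2 fold change was 1.57 ± 0.372, and 1.34 ± 0.364 without PLATE 1. THY1, a surface glycoprotein of fibroblasts, was tightly grouped at 111.7, 126 and 118 CPM in the acellular libraries and lay at 236, 208, 221 and 307 CPM in PLATE. That is a log2 fold change of 1.03 ± 0.296, which was 1.05 ± 0.317 without PLATE 1. MFAP4, which binds elastin and collagen in microfibrils, stood at 122, 81.9 and 72.6 CPM against 197, 204, 298 and 311 CPM. Here PLATE 1 was the lowest of its group, and the log2 fold change of 1.45 ± 0.430 was 1.55 ± 0.454 without it. OLFML2B, a secreted olfactomedin-domain protein, stood at 18.4, 10.3 and 10.5 CPM against 110.3, 26.7, 38.3 and 36.5 CPM, a log2 fold change of 2.02 ± 0.592 and of 1.37 ± 0.512 without PLATE 1.

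The remaining higher genes rested on few acellular counts or on PLATE 1. NOX4, the NADPH oxidase that produces hydrogen peroxide in fibroblasts and smooth muscle, had 3, 0 and 0 counts in the acellular libraries and 89, 11, 38 and 23 counts in PLATE, so no fold is given. PYCR1, an enzyme of proline synthesis, had 9, 2 and 1 counts against 110, 28, 18 and 21. PRSS35, a serine protease-like secreted protein, stood at 72.2 CPM in PLATE 1 and at 1.05 to 3.59 CPM in the other PLATE libraries, above 0.605 to 0.937 CPM in the acellular ones. Its log2 fold change of 4.70 ± 1.36 was 1.37 ± 0.674 without PLATE 1. IL1A, an alarm cytokine of the interleukin 1 family, showed the same reliance most plainly, with 0, 0 and 3 counts in the acellular libraries and 2423 counts in PLATE 1 against 4, 11 and 10 in PLATE 5, 9 and 13.

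**Figure D2:**
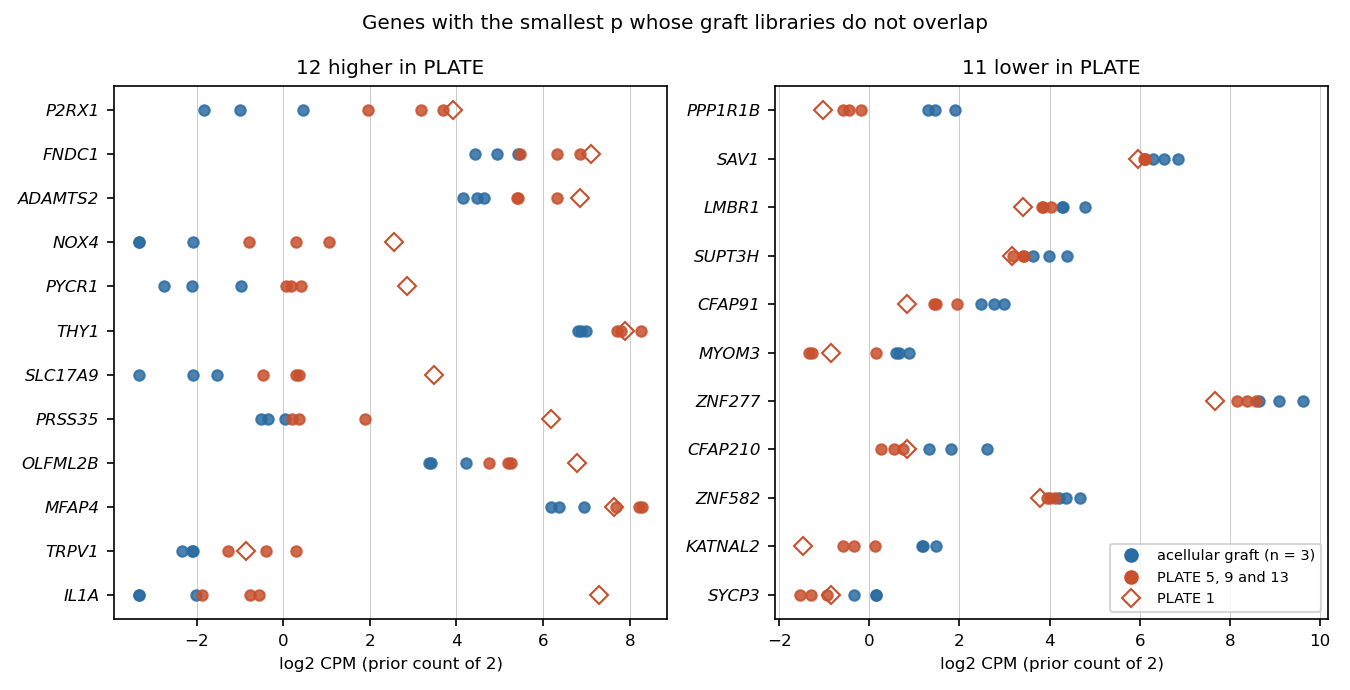
Level of the 12 higher (left) and 11 lower (right) genes with the smallest p among genes whose graft libraries did not overlap, as log2 CPM with a prior count of 2, each point being 1 library (3 acellular, 3 PLATE and, as an open diamond, PLATE 1). For THY1 PLATE 1 lies inside its group and for MFAP4 at its lower edge, while for PRSS35 and IL1A PLATE 1 lies far to the right.

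Of the 12 lower genes, 11 are given here, and the smallest p belonged to PPP1R1B, also called DARPP-32, an inhibitor of protein phosphatase 1. PPP1R1B stood at 2.37, 3.63 and 2.66 CPM in the acellular libraries and at 0.388, 0.568, 0.628 and 0.787 CPM in PLATE. The log2 fold change of PPP1R1B was -2.27 ± 0.519, and -2.12 ± 0.563 without PLATE 1. Sham libraries lay at 0.906 to 1.54 CPM and controls at 0.465 to 2.34 CPM, so all 3 acellular libraries were above the other 13. SAV1, a scaffold of the Hippo growth control pathway, stood at 93.2, 115.5 and 78.4 CPM against 62.3, 69.3, 69.2 and 68.0 CPM. Its PLATE libraries were closely grouped, and the log2 fold change was -0.51 ± 0.151, or -0.47 ± 0.159 without PLATE 1.

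Some of the lower genes encode parts of microtubule structures. CFAP91, an axonemal protein of motile cilia and flagella, stood at 5.47, 6.72 and 7.79 CPM against 1.68, 3.76, 2.67 and 2.61 CPM, with a log2 fold change of -1.31 ± 0.449. CFAP210, another ciliary protein, stood at 2.42, 3.43 and 6.02 CPM against 1.68, 1.35, 1.10 and 1.57 CPM, with a log2 fold change of -1.47 ± 0.509. KATNAL2, related to the microtubule-severing katanins, stood at 2.69, 2.15 and 2.17 CPM against 0.259, 0.568, 0.994 and 0.689 CPM, a log2 fold change of -1.88 ± 0.670. That all acellular libraries were above PLATE in these genes was a condition for naming them. SYCP3, a component of the synaptonemal complex of meiosis, had 22, 15 and 14 counts against 7, 7, 8 and 5, and MYOM3, an M-band protein of striated muscle, had 31, 26 and 30 counts against 7, 23, 6 and 6. The remaining genes were LMBR1, a membrane protein, SUPT3H, a subunit of a transcriptional coactivator complex, and the zinc finger genes ZNF277 and ZNF582. Their log2 fold changes lay at -0.67 ± 0.211, -0.73 ± 0.239, -0.94 ± 0.324 and -0.47 ± 0.165. A negative sign without PLATE 1 was a condition for naming all of these genes.

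Smooth muscle contractile genes were higher in PLATE for 33 of 35 members tested, with and without PLATE 1, and their median log2 fold change was 0.46, or 0.64 without PLATE 1. Of the 35, 12 were higher with no overlap against a background of 3.27%, and 21 without PLATE 1 against 5.31%. Of the 35, 4 were higher at an unadjusted p under 0.05 against 3.61%, and 2 without PLATE 1 against 0.990%. The mean log2 CPM of the list was 6.90, 7.05 and 6.84 in the acellular libraries and 7.92, 7.75 and 7.65 in PLATE 5, 9 and 13. PLATE 1, at 6.87, lay inside the acellular range. Sham libraries lay at 7.97 to 8.29, above all 7 graft libraries, and controls at 6.54 to 8.95. Leaving out any 1 graft library kept the median between 0.45 and 0.65.

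ACTG2, the actin of visceral smooth muscle, stood at 1283, 1822 and 1549 CPM in the acellular libraries and at 12289, 12313, 3552 and 4589 CPM in PLATE. ACTA2, the alpha actin of vascular smooth muscle and of myofibroblasts, stood at 1728, 2489 and 2514 CPM against 8471, 9366, 5489.6 and 5593 CPM. For both actins every PLATE library exceeded every acellular one, PLATE 1 included. Their log2 fold changes were 2.40 ± 0.979 for ACTG2 and 1.69 ± 0.725 for ACTA2, and 2.14 ± 1.02 and 1.60 ± 0.779 without PLATE 1. MYH11, the smooth muscle myosin heavy chain, went another way in PLATE 1, at 6828 CPM. It stood at 19231, 17833 and 14181 CPM in PLATE 5, 9 and 13 and at 8745, 10857 and 7548 CPM in the acellular libraries. Thus the groups overlapped for MYH11 with PLATE 1 and did not without it, at log2 fold changes of 0.68 ± 0.632 and 0.92 ± 0.664.

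Pericyte and mural cell genes were higher in 14 of 16 members tested, with a median of 0.46, and 0.29 without PLATE 1. At an unadjusted p under 0.05, 3 of 16 were higher, against 3.61% of all genes, and 0 without PLATE 1, against 0.990%. MCAM, an adhesion molecule of mural and endothelial cells, stood at 71.2, 86.6 and 83.4 CPM against 134, 144, 144 and 172 CPM. Its groups did not overlap, at a log2 fold change of 0.89 ± 0.412 and of 0.93 ± 0.444 without PLATE 1. RGS5, a regulator of G protein signalling in pericytes, had overlapping groups, at 156, 175 and 224 CPM against 66.4, 108.4, 278 and 275 CPM, and its log2 fold change of -0.03 ± 0.689 was 0.25 ± 0.701 without PLATE 1. Skeletal muscle genes, which mark neighbouring striated muscle in a sample, had a mean log2 CPM of 0.97 to 1.90 in the acellular libraries and 1.37 to 2.51 in PLATE, with the highest value in PLATE 5. Of 18 members tested 10 were higher, at a median of 0.21, and the part of striated muscle in the results on contractile genes was not tested.

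**Figure D3:**
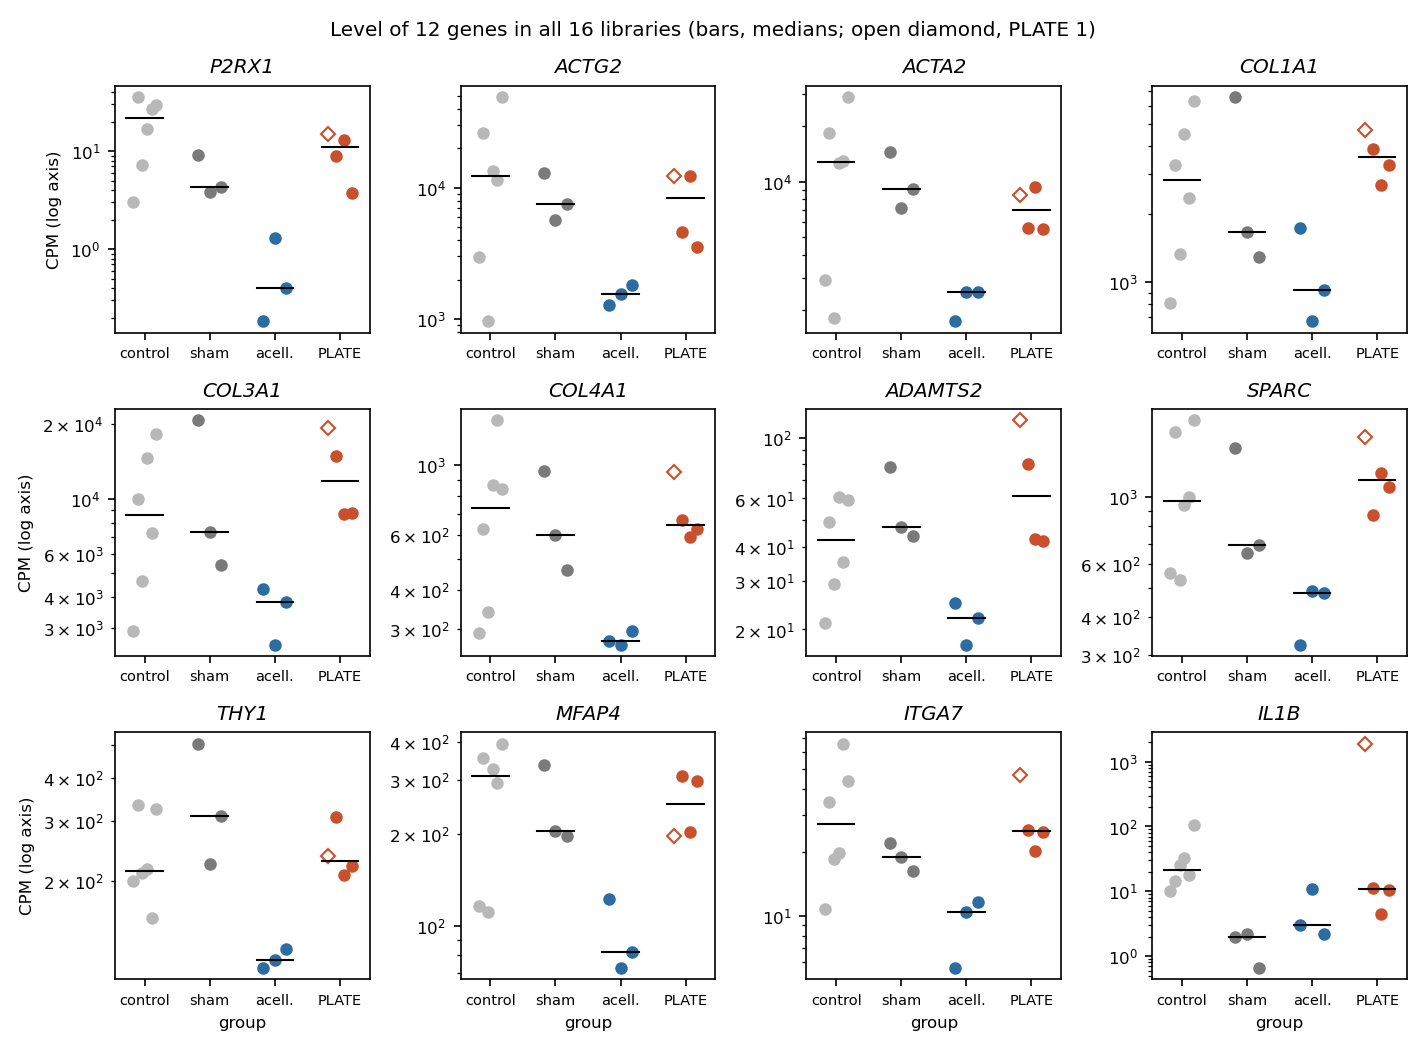
Level in CPM on a log axis of 12 genes of muscle, matrix, adhesion and inflammation in all 16 libraries, by group (6 control, 3 sham, 3 acellular, 4 PLATE), with a bar at the group median and PLATE 1 as an open diamond. For P2RX1, ACTG2, ACTA2 and COL4A1 the acellular libraries lie below all PLATE libraries, and for IL1B PLATE 1 alone, at 1894 CPM, is far above the rest.

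Collagen chain genes were higher in PLATE for 20 of 24 members tested, and 21 of 24 without PLATE 1. Their median log2 fold change was 0.89, the highest of the matrix lists, and 0.76 without PLATE 1, and it stayed between 0.76 and 1.11 whichever graft library was left out. At an unadjusted p under 0.05, 11 of the 24 were higher and none lower, against backgrounds of 3.61 and 1.10%, and 5 of 24 without PLATE 1 against 0.990%. In 9 of the 24 the groups did not overlap, against 3.27%, and in 10 without PLATE 1, against 5.31%. The mean log2 CPM of the list was 5.45, 5.02 and 4.89 in the acellular libraries and 6.54, 5.91, 5.59 and 5.90 in PLATE, so even the lowest PLATE library was above the highest acellular one. Sham libraries lay at 5.75 to 6.31 and controls at 5.18 to 6.19.

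COL1A1 and COL1A2 encode the chains of type I collagen, the main fibrillar collagen of connective tissue. COL1A1 stood at 1735, 927 and 672 CPM against 4717, 2697, 3290.3 and 3883 CPM. COL1A2 stood at 5555, 2842 and 2758 CPM against 15841, 7561, 9128 and 9980.0 CPM. In both genes acellular 6 was the highest of its group and still below each PLATE library. Sham 12 and 14 lay below acellular 6 in both genes, at 1672 and 1289 CPM for COL1A1 and 4417 and 4587 CPM for COL1A2. Sham 11 lay at 6570 and 15579 CPM. Controls ranged from 812 to 6314 CPM for COL1A1 and from 2394.5 to 15759 CPM for COL1A2. The log2 fold change of COL1A1 was 1.71 ± 0.689, and 1.57 ± 0.730 without PLATE 1. COL1A2 had 1.51 ± 0.631, and 1.26 ± 0.658 without PLATE 1. COL3A1, the type III collagen of distensible tissue and early scars, stood at 4316, 3832 and 2573 CPM against 19330.0, 8679.7, 8761 and 14817 CPM. In COL3A1 the log2 fold change of 1.85 ± 0.641 was 1.59 ± 0.664 without PLATE 1. COL5A2, a chain of type V collagen, which sets the width of type I fibrils, stood at 206, 219 and 198 CPM against 1273, 397, 420.4 and 467 CPM. The acellular libraries were nearly equal and PLATE 1 far above the rest, so that the log2 fold change of 1.62 ± 0.503 was 1.04 ± 0.424 without it.

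COL4A1, a chain of the type IV collagen of basement membranes, stood at 273, 295 and 266 CPM against 951, 590.2, 624 and 667 CPM. Again the groups were apart, with a log2 fold change of 1.35 ± 0.450, and 1.17 ± 0.468 without PLATE 1. The minor fibrillar chains COL11A1 and COL5A3 depended on PLATE 1. COL11A1 stood at 288 CPM in PLATE 1 and at 0.575 to 3.93 CPM in the other PLATE libraries, overlapping 0.336 to 1.64 CPM in the acellular ones. COL5A3 stood at 566 CPM in PLATE 1, and its 16.3 to 28.3 CPM in the others overlapped 7.43 to 16.5 CPM. Their log2 fold changes of 6.46 ± 2.09 and 3.80 ± 1.25 became 1.39 ± 1.17 and 1.06 ± 0.730 without PLATE 1.

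Enzymes that process and crosslink collagen were higher in 23 of 25 members tested at a median of 0.65, and in 21 of 25 at 0.45 without PLATE 1. At an unadjusted p under 0.05, 13 of 25 were higher, against 3.61% of all genes, and 5 of 25 without PLATE 1, against 0.990%. The mean log2 CPM of the list lay at 5.21 to 5.35 in the acellular libraries and at 6.50, 5.51, 5.67 and 5.93 in PLATE. PCOLCE, which speeds the removal of the carboxyl end of procollagen, stood at 58.02, 55.98 and 83.0 CPM against 378, 108.8, 153 and 229 CPM. The lowest PLATE library lay above all acellular ones, at a log2 fold change of 1.73 ± 0.529 and of 1.32 ± 0.503 without PLATE 1. BMP1, the protease that PCOLCE enhances, stood at 36.3, 38.1 and 41.5 CPM against 373, 51.004, 60.8 and 83.3 CPM. Here too the groups did not overlap, but PLATE 1 carried most of the size, at a log2 fold change of 1.88 ± 0.563 with it and 0.75 ± 0.269 without it. LOXL2, a lysyl oxidase that crosslinks collagen, stood at 47.1, 65.0 and 49.8 CPM against 434, 85.8, 104.2 and 117 CPM, and its log2 fold change of 1.78 ± 0.577 was 0.92 ± 0.426 without PLATE 1. PLOD2, which hydroxylates lysine for crosslinks, stood at 108.2, 117 and 89.2 CPM against 354, 156, 191 and 135 CPM, a log2 fold change of 1.00 ± 0.454 and of 0.62 ± 0.432 without PLATE 1. LOX, the founding lysyl oxidase, went against its list, at 217, 92.1 and 81.6 CPM against 139.6, 95.3, 110.5 and 102.4 CPM. Acellular 6 was the highest library for LOX, and the log2 fold change of -0.22 ± 0.375 was -0.34 ± 0.403 without PLATE 1 and 0.37 without acellular 6.

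Elastic fibre genes were higher in 12 of 13 members tested at a median of 0.32, and 0.42 without PLATE 1, with 4 of 13 higher without overlap, with and without PLATE 1, against 3.27 and 5.31% of all genes. MFAP4, given above, was 1 of these. FBN1, the fibrillin of adult microfibrils, had overlapping groups at 267, 394 and 248 CPM against 436, 289, 522 and 391 CPM, and its log2 fold change was 0.43 ± 0.460, or 0.40 ± 0.500 without PLATE 1. FBN2, the fibrillin prominent in development, stood at 32.4 CPM in PLATE 1 and at 1.88 to 2.90 CPM in the other PLATE libraries, against 1.00 to 1.68 CPM. Its log2 fold change went from 2.96 ± 1.02 to 0.85 ± 0.651 without PLATE 1. For FBLN5, a fibulin needed to assemble elastic fibres, PLATE 1 was instead the lowest library at 34.7 CPM, and the groups overlapped.

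Small proteoglycan and hyaluronan genes were higher in 17 of 22 members tested at a median of 0.45, but in 15 of 22 at 0.26 without PLATE 1. There were 7 of the 22 higher at an unadjusted p under 0.05 against 3.61%, and 0 without PLATE 1 against 0.990%. None of the 22 was higher without overlap, a count near the background of 3.27%. DCN, or decorin, stood at 6944, 9016 and 4681 CPM against 4547, 4513, 6794 and 7050.0 CPM with full overlap. LUM, or lumican, which spaces collagen fibrils, stood at 1057, 2475 and 1211 CPM against 5022, 1660.2, 2440.4 and 3148 CPM, at a log2 fold change of 0.96 ± 0.397 and of 0.61 ± 0.373 without PLATE 1. In BGN, or biglycan, and ASPN, or asporin, PLATE 1 was highest, at 1619 and 1047 CPM. The other PLATE libraries lay at 427 to 864 CPM for BGN against 408 to 438 CPM in the acellular ones. For ASPN they lay at 53.8 to 60.7 CPM against 15.3 to 54.7 CPM.

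Matricellular and provisional matrix genes were higher in 16 of 25 members tested at a median of 0.51, and in 19 of 25 at 0.19 without PLATE 1. SPARC, a collagen-binding protein of remodelling tissue, stood at 324, 481 and 488 CPM against 1576, 1199, 1079 and 870.1 CPM. Every PLATE library was well above the acellular ones, with a log2 fold change of 1.45 ± 0.443, and 1.28 ± 0.459 without PLATE 1. FN1, the fibronectin of provisional matrix, stood at 1610.4, 2994 and 1781 CPM against 10661, 5248, 4260.3 and 4122 CPM. Its groups were also apart, at 1.51 ± 0.555, and 1.09 ± 0.539 without PLATE 1. VTN, or vitronectin, an adhesive plasma and matrix protein, had 1, 8 and 11 counts against 829, 47, 261 and 25. TNC, or tenascin C, a matrix protein of wounds, overlapped at 245, 476 and 501 CPM against 459, 582, 416 and 548 CPM. POSTN, or periostin, stood at 28.2, 92.3 and 15.3 CPM against 332, 105.9, 16.1 and 32.8 CPM, so that without PLATE 1 its log2 fold change of 1.43 ± 0.879 was 0.19 ± 0.747.

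Metalloproteinases and their inhibitors were higher in 19 of 25 members tested at a median of 0.56, and in 20 of 25 at 0.47 without PLATE 1. At an unadjusted p under 0.05, 9 of 25 were higher, against 3.61% of all genes, and 1 of 25 without PLATE 1, against 0.990%. The most extreme members of the list were high in PLATE 1. MMP1, the interstitial collagenase, stood at 0.0456, 0.538 and 0.691 CPM in the acellular libraries, at 1956 CPM in PLATE 1, and at 0.611, 1.83 and 5.36 CPM in PLATE 5, 9 and 13. MMP3, or stromelysin 1, had 0, 0 and 1 counts against 4472 in PLATE 1 and 1, 3 and 16 in the others. MMP9, the gelatinase of neutrophils and macrophages, stood at 647 CPM in PLATE 1 and at 0.889 to 13.8 CPM in the others, overlapping the acellular range of 0.228 to 4.34 CPM. TIMP1, which inhibits these proteases, stood at 1381 CPM in PLATE 1 and at 133 to 163 CPM in the others, inside the acellular range of 78.7 to 169.7 CPM. MMP16, a membrane-bound member, was separated in all libraries, at 7.25, 4.37 and 4.74 CPM against 13.9, 8.08, 10.1 and 10.8 CPM. That gave a log2 fold change of 0.97 ± 0.319, and 0.82 ± 0.322 without PLATE 1. MMP2, the gelatinase of stromal cells, overlapped because PLATE 5, at 739 CPM, was below acellular 6 and 8, while PLATE 1, 9 and 13 lay at 1262 to 1331 CPM.

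Fibroblast genes were higher in 17 of 26 members at a median of 0.18, and 0.24 without PLATE 1, while without PLATE 13 the median was -0.03. In 5 of the 26 the PLATE libraries all lay higher, with and without PLATE 1, against 3.27 and 5.31% of all genes. Of the 26, 4 were higher at an unadjusted p under 0.05 against 3.61%, and 2 without PLATE 1 against 0.990%. PDGFRA, a growth factor receptor of fibroblasts, overlapped at 102.4, 100.4 and 75.3 CPM against 65.5, 75.5, 109.7 and 141 CPM. CCDC80, a secreted matrix-binding protein, did not overlap, at 219.9, 400.3 and 286 CPM against 618, 405, 516 and 624 CPM, though PLATE 5 was just above acellular 8. For CCDC80 the log2 fold change was 0.84 ± 0.332, and 0.77 ± 0.355 without PLATE 1.

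Basement membrane and integrin genes had a median of 0.02 with all libraries, equal to that of all genes, and of 0.20 without PLATE 1, with 16 and 21 of 29 members higher. Its mean log2 CPM was 5.70 to 5.86 in the acellular libraries, 6.05 to 6.06 in PLATE 5, 9 and 13, and 5.59 in PLATE 1, below all the rest. Some single members were higher in each PLATE library. ITGA7, the laminin-binding integrin of muscle, stood at 5.66, 11.7 and 10.5 CPM against 46.8, 20.3, 25.0 and 25.6 CPM. The log2 fold change of ITGA7 was 1.67 ± 0.517, and 1.35 ± 0.513 without PLATE 1. TINAGL1, a secreted basement membrane protein, stood at 19.6, 28.4 and 27.4 CPM against 105.95, 62.3, 35.5 and 63.6 CPM, at 1.41 ± 0.444 and 1.10 ± 0.432 without PLATE 1. ITGA5, the fibronectin receptor subunit, stood at 70.1, 98.0 and 132 CPM against 485, 219, 189.9 and 169.5 CPM, at 1.41 ± 0.609 and 0.95 ± 0.591. ITGAV, an integrin that binds vitronectin and latent TGF-beta, was at its lowest in PLATE 1 at 60.9 CPM and did not overlap without it. The laminin chains differed less: LAMB1 had a log2 fold change of 0.71 ± 0.387, or 0.54 ± 0.401 without PLATE 1, and LAMA2 of -0.14 ± 0.404, or 0.08 ± 0.396 without PLATE 1.

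The medians of 3 signalling lists lay between -0.24 and 0.05. Genes of TGF-beta, BMP and activin signalling had a median of -0.02 with 15 of 37 higher, and 0.08 without PLATE 1. Within them FSTL1, a secreted follistatin-like protein of stromal cells, stood at 167, 204 and 179.6 CPM against 247, 281, 259 and 321 CPM. It was clear of overlap, with a log2 fold change of 0.59 ± 0.224, and 0.65 ± 0.237 without PLATE 1. Wnt genes were lower in 27 of 40 members at a median of -0.24, and in 21 of 40 at -0.05 without PLATE 1, and the median was -0.01 without acellular 6. WNT2B, a stromal Wnt ligand, was the exception with separated groups, at 9.67, 10.1 and 7.005 CPM against 10.2, 12.3, 14.1 and 15.4 CPM, although PLATE 1 and acellular 8 nearly touched. Growth factor and IGF axis genes had a median of 0.05, and IGF1 overlapped at a log2 fold change of 0.45 ± 0.488. IRS4, an adaptor below the insulin and IGF1 receptors, was higher in acellular 6 and 8 at 6.52 and 1.01 CPM than in PLATE at 0.129 to 0.314 CPM, but acellular 10 lay at 0.148 CPM.

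Endothelial and angiogenesis genes had a median of 0.18 with and without PLATE 1, and 25 of 39 members were higher. PECAM1, an adhesion molecule of endothelium that leukocytes and platelets also carry, stood at 93.7, 155 and 167 CPM against 685, 165, 175 and 174 CPM. The high value was that of PLATE 1, and the log2 fold change of 1.11 ± 0.490 was 0.30 ± 0.326 without it. CDH5, the cadherin of endothelial junctions, was not high in PLATE 1, at 23.5, 45.2 and 47.7 CPM against 40.3, 55.9, 50.999 and 58.1 CPM. VWF, the clotting factor of endothelium, overlapped at 78.3, 317 and 318 CPM against 303, 251, 502 and 289 CPM. NRP2, a semaphorin and VEGF co-receptor, stood at 142, 216 and 165 CPM against 168, 495, 323 and 274 CPM, and without PLATE 1 its groups were apart, at 1.06 ± 0.445. The apelin receptor gene APLNR had a log2 fold change of 1.03 ± 0.456 with overlap between PLATE 5 and acellular 10. Schwann cell and nerve genes had a median of -0.03, and 0.08 without PLATE 1, and SOX10, a transcription factor of Schwann cells, overlapped between the groups.

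In the epithelial lists single libraries stood out. Columnar epithelium genes were lower in 25 of 31 members at a median of -0.19, yet higher in 18 of 31 at 0.08 without PLATE 1. The mean log2 CPM of this list was 4.77, 4.89 and 5.70 in the acellular libraries, 5.25, 5.40 and 5.09 in PLATE 5, 9 and 13, and 3.15 in PLATE 1. EPCAM, an epithelial adhesion molecule, stood at 119, 158 and 287 CPM against 33.4, 172, 166 and 126 CPM. CDH1, the epithelial cadherin, stood at 92.0, 119 and 238 CPM against 13.7, 151, 110.4 and 90.5 CPM. PLATE 1 was the lowest and acellular 10 the highest library for both genes. CFTR, the chloride channel of secretory epithelium, was at 11.3 CPM in PLATE 1 and at 121 to 180.2 CPM in the other PLATE libraries, within the acellular range of 57.1 to 205 CPM. OVGP1, the oviductal glycoprotein of secretory cells, reached 577 CPM in PLATE 5 and lay at 11.6 to 35.9 CPM in the other PLATE libraries, against 13.1, 47.3 and 135 CPM. Basal and squamous genes had 11 of 22 members higher at a median of 0.01, and their keratin gene KRT5 overlapped at 12.0, 7.06 and 4.64 CPM against 19.6, 17.0, 4.34 and 3.69 CPM.

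Motile cilia genes were lower in PLATE for 32 of 34 members at a median of -1.12, and for 30 of 34 at -1.08 without PLATE 1. This rested on acellular 10. The list had a mean log2 CPM of 2.47 in acellular 10, -0.10 and -0.51 in acellular 6 and 8, and -0.52 to 0.67 in PLATE, and the median was 0.27 without acellular 10. Of the 34, 2 were lower with no overlap, against 1.70% of all genes. DNAH5, a dynein heavy chain of the axoneme, stood at 1.19, 2.02 and 15.1 CPM against 0.517, 6.07, 6.43 and 3.49 CPM. Its log2 fold change of -0.56 ± 1.20 was 1.38 without acellular 10. Mucosal secretion and defence genes had a mean log2 CPM of 5.15, 6.63 and 8.05 in the acellular libraries and 6.97 to 7.34 in PLATE, so that acellular 6 and acellular 10 enclosed the PLATE group.

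In several immune lists PLATE 1 stood far above the other 6 libraries. Neutrophil and interleukin 1 genes were higher in 21 of 22 members at a median of 2.97, but in 14 of 22 at 0.33 without PLATE 1. In mean log2 CPM the list stood at 1.27, 1.82 and 3.66 in the acellular libraries, 7.41 in PLATE 1, and 2.42, 3.58 and 3.11 in PLATE 5, 9 and 13. IL1B, the main secreted interleukin 1, stood at 3.01, 2.22 and 11.0 CPM against 1894, 4.45, 10.6 and 11.3 CPM. CXCL8, the chief neutrophil attractant, stood at 1.92, 2.96 and 8.73 CPM against 2378, 5.20, 21.5 and 14.0 CPM. PLATE 1 thus lay far above all others for both cytokines. CSF3R and CXCR1, receptors that mark neutrophils, were likewise at 332 and 329.6 CPM in PLATE 1. In PLATE 5, 9 and 13 they lay at 1.79 to 25.8 CPM and 3.62 to 33.3 CPM, overlapping the acellular libraries. IDO1, an interferon-inducible enzyme that breaks down tryptophan, stood at 1081 CPM in PLATE 1 and at 7.34 to 53.1 CPM in the other 6 libraries. Several immune lists and several matrix lists were thus high in PLATE 1, and the part of immune cells in its matrix values was not tested. Interferon-stimulated genes and basement membrane and integrin genes were instead lowest in PLATE 1 among the graft libraries, at a mean log2 CPM of 4.82 and 5.59.

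Macrophage genes had a median of 0.81 with 33 of 38 higher, and of -0.05 with 17 of 38 higher without PLATE 1. CD68, a lysosomal protein of macrophages, stood at 26.6, 50.0 and 83.2 CPM against 358, 35.5, 81.7 and 55.2 CPM, and CSF1R, their growth factor receptor, at 37.7, 59.4 and 125 CPM against 378, 42.1, 109.4 and 67.5 CPM. ARG1, an arginase of myeloid cells, stood at 458 CPM in PLATE 1 and at 1.19 to 8.63 CPM elsewhere among the graft libraries. The PLATE libraries other than PLATE 1 did not stand apart from the acellular ones in these genes. MHC class II genes had a median of 0.93, and 0.21 without PLATE 1, and HLA-DRA, a chain of the presenting molecule, stood at 283, 1565 and 1552 CPM against 4844, 799.9, 1168 and 1345 CPM. B cell and plasma cell genes had a median of 1.58, and 0.27 without PLATE 1, with CD79B, a chain of the B cell receptor complex, at 0.593, 0.874 and 2.12 CPM against 91.4, 1.88, 2.72 and 7.43 CPM. JCHAIN, the joining chain of secreted antibodies, was not of that pattern and overlapped at 1389.6, 3898 and 3650.2 CPM against 4670.1, 2232, 3739.9 and 3156 CPM.

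T cell and natural killer cell genes had a median of 0.08, and -0.15 without PLATE 1, and a mean log2 CPM of 0.61 in acellular 6 against 2.29 to 2.38 in the other acellular libraries and 1.25 to 2.85 in PLATE. CD2, an adhesion molecule of T cells, stood at 2.33, 13.0 and 11.6 CPM against 26.5, 8.21, 6.90 and 13.7 CPM. In these lists acellular 6 was the lowest library, and it was also the lowest for macrophage, MHC class II, B cell, neutrophil and chemokine genes. Chemokine and chemokine receptor genes had a median of 0.56, and 0.02 without PLATE 1. CCR7, which guides lymphocytes and dendritic cells to lymphoid tissue, stood at 29.4 CPM in PLATE 1 and at 1.09 to 5.21 CPM in the other 6. Of the mast cell genes 7 of 18 were tested, and FCER1A, a chain of the IgE receptor, was at 41.8 CPM in PLATE 1 and at 0.470 to 2.25 CPM in the others.

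**Figure D4:**
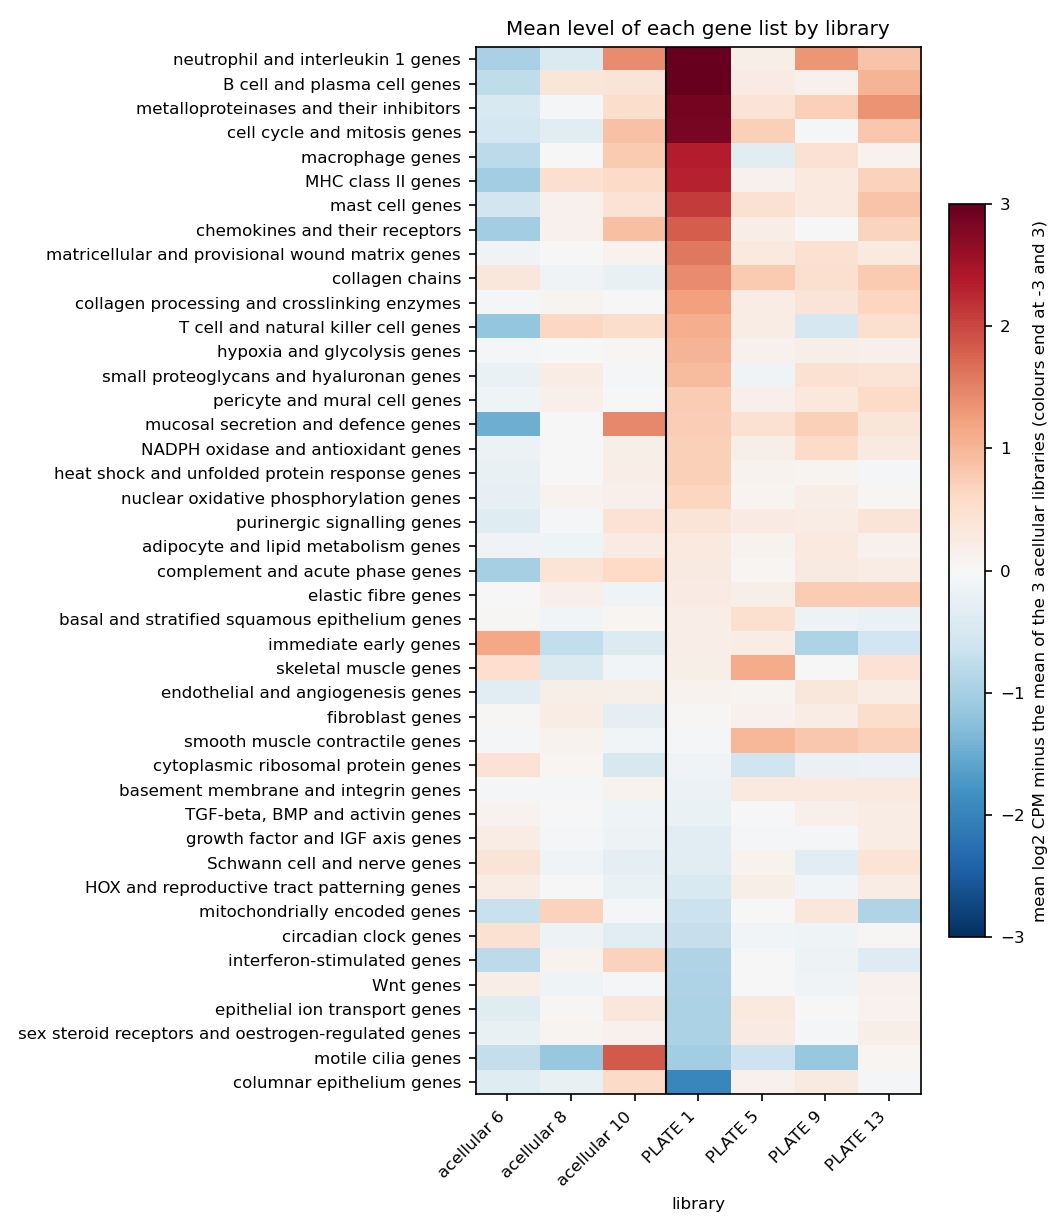
Mean log2 CPM of each of the 43 gene lists in the 7 graft libraries, minus the mean of the 3 acellular libraries, as colour (red higher, blue lower, colours ending at -3 and 3). PLATE 1 is the highest library in 19 lists and the lowest in 10, and acellular 10 is the highest library for motile cilia genes.

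Interferon-stimulated genes were lower in PLATE for 30 of 35 members both with and without PLATE 1, at medians of -0.55 and -0.35. Acellular 10 had the highest mean log2 CPM of the list, 6.42, against 4.94 and 5.83 in acellular 6 and 8 and 4.82 to 5.71 in PLATE, and the median was -0.07 without it. IFIT2, an interferon-induced antiviral protein, stood at 32.3, 60.7 and 113.7 CPM against 6.27, 54.9, 38.3 and 38.8 CPM. Acellular 6 lay below several PLATE libraries for IFIT2, so the groups overlapped. Complement and acute phase genes had a median of -0.07, and -0.01 without PLATE 1.

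Immediate early genes, which many cells switch on within minutes of a stimulus or of handling, were lower in 19 of 27 members at a median of -0.55, and in 23 of 27 at -0.83 without PLATE 1. The list was highest in acellular 6, whose mean log2 CPM of 5.53 compares with 3.63 and 3.97 in acellular 8 and 10 and 3.45 to 4.59 in PLATE, and the median was 0.48 without acellular 6. FOS, a subunit of the AP-1 factor, stood at 1172, 39.1 and 112.5 CPM against 86.5, 405, 44.9 and 89.9 CPM. EGR1, a zinc finger factor of the same response, stood at 438, 40.1 and 67.7 CPM against 36.4, 247, 26.1 and 33.3 CPM. In both genes acellular 6 and then PLATE 5 were the high libraries. EGR4, a rarer relative, ran against the list, with 1, 2 and 0 counts against 0, 11, 10 and 7.

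Cell cycle and mitosis genes were higher in 46 of 47 members at a median of 1.50, and in 33 of 47 at 0.35 without PLATE 1. TOP2A, the topoisomerase of dividing cells, stood at 12.8, 15.3 and 20.3 CPM against 102.8, 27.6, 12.1 and 26.6 CPM. FOXM1, a transcription factor of mitotic genes, stood at 0.365, 0.605 and 2.07 CPM against 14.2, 2.62, 2.62 and 3.98 CPM. Each PLATE library was above the acellular ones for FOXM1 but not for TOP2A, which overlapped through PLATE 9. FOXM1 was the only 1 of the 47 higher with no overlap, a count near the background of 3.27%. At an unadjusted p under 0.05, 7 of 47 were higher, against 3.61%, and 0 without PLATE 1, against 0.990%. The mean log2 CPM of the list was 1.37, 1.56 and 2.78 in the acellular libraries and 4.74, 2.63, 1.84 and 2.72 in PLATE. The log2 fold change of FOXM1 was 2.51 ± 1.06, and 1.59 ± 1.00 without PLATE 1, while CDK1, the kinase that starts mitosis, had -0.09 ± 0.323.

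Hypoxia and glycolysis genes had a median of 0.32, and 0.16 without PLATE 1. SLC16A3, a lactate exporter, stood at 52.97 CPM in PLATE 1 and at 0.306 to 1.83 CPM in the other 6 libraries. Heat shock and unfolded protein response genes went from 0.25 to 0.00 without PLATE 1, and nuclear genes of oxidative phosphorylation from 0.26 to 0.07. EDEM1, which marks misfolded proteins of the endoplasmic reticulum for destruction, was at 313 CPM in PLATE 1 against 21.8 to 55.8 CPM in the others. UQCRQ, a subunit of respiratory complex III, did not overlap, at 72.7, 71.4 and 91.7 CPM against 182, 93.9, 101.6 and 115.8 CPM.

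All 13 mitochondrially encoded genes tested and all 16 cytoplasmic ribosomal protein genes tested were lower in PLATE, with and without PLATE 1. Only 17 of the 78 entries of the ribosomal list were among the named genes, so most ribosomal protein genes could not be read. The medians were -0.32 and -0.31 without PLATE 1 for the mitochondrial genes, and -0.31 and -0.35 for the ribosomal ones. None of these 29 genes was free of overlap or had an unadjusted p under 0.05, which is near the backgrounds of 1.70 and 1.10% for lower genes. Acellular 8 had the highest mean log2 CPM of mitochondrial genes, 13.14 against 11.54 to 12.78 in the other 6 libraries, and the median was 0.03 without it. For ribosomal genes acellular 6 was highest at 10.86 and PLATE 5 lowest at 9.83, and the median was -0.08 without acellular 6. COX1, a mitochondrially encoded subunit of cytochrome oxidase, and RPS6, a protein of the small ribosomal subunit, overlapped at log2 fold changes of -0.03 ± 0.508 and -0.20 ± 0.369.

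Single genes of organ position and hormone response were read beside their lists. HOXA13, a positional factor of the lower genital tract, stood at 33.7, 23.6 and 19.1 CPM against 6.14, 18.3, 23.7 and 32.5 CPM. ESR1, the oestrogen receptor, stood at 324, 415 and 467 CPM against 46.8, 428, 447 and 346 CPM. PLATE 1 was the lowest graft library for both genes, whereas the other PLATE libraries lay within or near the acellular range. The reason was not tested. The list of sex steroid receptors and oestrogen-regulated genes had a median of -0.18, and -0.03 without PLATE 1, and HOX and patterning genes had -0.01 and 0.04.

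Beyond P2RX1, the purinergic list had 21 of 30 members higher at a median of 0.29, and 0.21 without PLATE 1. P2RY1, a G protein-coupled ADP receptor, and ENTPD1, an enzyme that degrades extracellular ATP, overlapped between the groups at log2 fold changes of -0.48 ± 0.616 and 0.33 ± 0.267. NADPH oxidase and antioxidant genes had a median of 0.28, and 0.09 without PLATE 1. CYBB, the oxidase of phagocytes, was at 141 CPM in PLATE 1 and overlapped in the rest, unlike NOX4. Adipocyte and lipid genes had a median of 0.11, with ADIPOQ, the fat cell hormone adiponectin, at 46.9, 144 and 133 CPM against 159, 136, 162 and 247 CPM. Clock genes had a median of -0.19, and -0.06 without PLATE 1. NPAS2, a clock transcription factor, did not overlap, at 8.99, 7.66 and 9.77 CPM against 36.5, 12.9, 14.5 and 12.7 CPM, a log2 fold change of 1.12 ± 0.431, and of 0.60 ± 0.355 without PLATE 1.

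**Figure D5:**
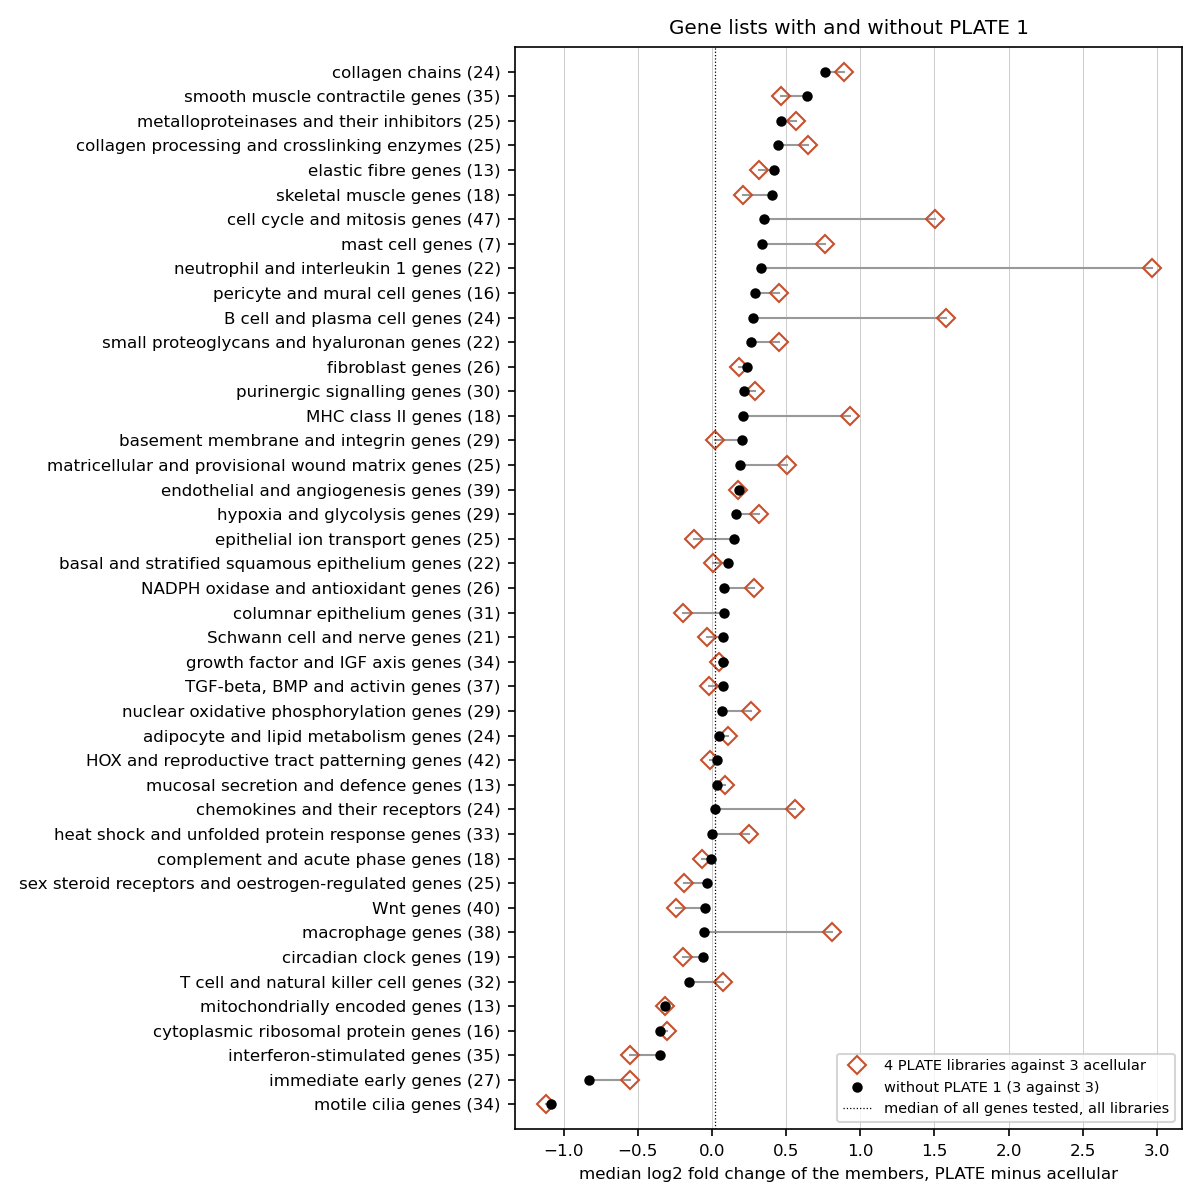
Median log2 fold change of the members tested of each list (number in brackets), with all 4 PLATE libraries as open diamonds and without PLATE 1 as filled circles; the dotted line is the median of all genes tested, 0.02. Collagen chains and smooth muscle genes stay at 0.76 and 0.64 without PLATE 1, while neutrophil and interleukin 1 genes go from 2.97 to 0.33.

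Across the 43 lists, 29 had a median above 0 and 32 did so without PLATE 1, and 7 changed sign between the fits.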

How the data were processed

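Libraries came from poly(A) RNA of frozen vaginal tissue, prepared with a stranded kit, per the labels' protocols. Per the submitters' processing notes, FastQC, HISAT2 2.2.1 and featureCounts were used. The genome build, annotation and strand setting are not given in the sources used here, so no coordinates are printed and overlapping or antisense genes may share reads. The authors deposited raw whole-number counts for 13001 genes with a symbol. A pooled line of genes without a symbol, 24.9 to 28.5% of the counts of a graft library, was left out of library sizes and tests. Of the symbols, 12350 (95.0%) were found in the RefSeq gene table of assembly mOryCun1.1. The trailing index of a column name linked it to its sample, because the middle number given in the labels is the same for every sample.

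From these counts, 10942 genes passed filterByExpr. In R 4.3.3, edgeR 4.0.16 fitted its quasi-likelihood F test to all 16 libraries after scaling by the trimmed mean of M values, with a mean per group and 12 residual degrees of freedom. Benjamini-Hochberg adjustment ran over the whole set of tested genes, and the threshold was 0.05. The p-values weigh the difference between PLATE and acellular against the spread between animals, estimated over all 16 libraries. Biological variation between animals had a common coefficient of 0.440. Standard errors, at a median of 0.327, were taken from each fold change and its F statistic. Log2 CPM used a prior count of 2. Genes with 3 counts or fewer over the acellular libraries are given as counts, with no fold.

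The members and the 43 gene lists (1648 distinct symbols, 1148 in the table and 1072 tested) were chosen with earlier results of these data known. Since no gene passed, the 12 higher and 12 lower genes with the smallest p were named, among those without overlap and with 1 direction in both fits; 1 lower gene is not reported here. From each list the first 3 members present and up to 4 with the smallest p under 0.05 could be named. Alternatives were DESeq2 1.42.0 (test and size factors), limma 3.58.1 with voom and quality weights, no filter, the 7 graft libraries alone, and each library left out. The number 9 occurs in a control and a PLATE label, and these were treated as separate animals.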

Additional observations from a re-analysis of the deposited data

Results flagged for a closer look

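Among the 4 PLATE libraries, the gap between the highest or lowest library and its nearest neighbour was checked against Dixon's critical value for 169 sets of values, which were 5 library measures, the 43 lists and 121 genes. Chance alone gives such a gap in about 1 set in 20 where sets are independent and not chosen by their values. Many of the genes here were picked by a small p in fits that include PLATE 1, and lists and genes share members. The number of gaps therefore cannot be read against that rate. Such a gap was found in 22 sets, 5 lists and 17 genes, and PLATE 1 was the library that stood apart in 19 of them.

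PLATE 1 was high for the mean log2 CPM of matricellular and provisional wound matrix genes, at 7.53 against 6.25 to 6.40 in the other PLATE libraries, and of hypoxia and glycolysis genes, at 6.67 against 5.78 to 5.84. It was low for basement membrane and integrin genes, at 5.59 against 6.05 to 6.06, and for columnar epithelium genes, at 3.15 against 5.09 to 5.40. PLATE 5 was low for cytoplasmic ribosomal protein genes, at 9.83 against 10.24 to 10.32.

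On the log2 CPM scale, PLATE 1 was high for the matrix genes COL5A2 (10.31), COL5A3 (9.14), FBN2 (5.02), ASPN (10.03) and TIMP1 (10.43). It was likewise high for the immune and endothelial genes IL1A (7.29), IL1B (10.89), FCER1A (5.39), CYBB (7.14) and PECAM1 (9.42), and for PYCR1 (2.85) and NPAS2 (5.20). PLATE 1 was low for CFTR (3.51), IFIT2 (2.67) and ESR1 (5.55). The remaining gaps were those of PLATE 5, low for MMP2 (9.53) and high for EGR1 (7.95). In the acellular group, with 3 libraries, no such check was made.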

How the results depend on the processing

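No paired analysis was possible because PLATE 1, 5, 9 and 13 share no number with acellular 6, 8 and 10. The count of genes past the adjusted threshold was 0 in edgeR under every setting tried, and 1, P2RX1, with DESeq2, both with and without PLATE 1. Genes at an unadjusted p under 0.05 numbered 515, and 328 with the 7 graft libraries alone, 1155 with voom, 293 with PLATE 1 and acellular 6 left out together, 379 with PLATE 1 and acellular 10 left out together (both chosen after seeing the data), and 176 (without PLATE 1) to 794 (without acellular 10) when 1 library was left out. They numbered 266 without acellular 8 and 787 without PLATE 5. Genes without overlap numbered 544, and 727 to 1955 with 1 graft library left out, where fewer libraries by construction leave more genes separated. Of 121 genes named here or in the lists, 23 changed direction under at least 1 of 21 settings; for the 23 with the smallest p the choice of genes without overlap fixed the direction when 1 graft library was left out. These reversals came to 49 of 2537 gene and setting pairs, 9 of them without PLATE 1, and the cause was not tested. Reversed log2 fold changes with voom were 0.087 (RGS5), 0.062 (LOX), -0.21 (POSTN), 0.30 (SOX10), 0.16 (KRT8), 0.029 (CFTR), 0.51 (DNAH5), -0.18 (HLA-DRA), -0.22 (JCHAIN), 0.77 (FOS), 0.048 (EGR1), -0.034 (SLC16A3), 0.027 (HOXA13) and -0.12 (CYBB). With 1 library left out, ranges that crossed 0 were -0.30 to 0.25 (RGS5), -0.47 to 0.37 (LOX), -0.24 to 0.34 (FBLN5), -0.36 to 0.075 (LAMA2), -0.27 to 0.34 (SOX10), -0.42 to 0.40 (KRT8), -1.60 to 2.41 (OVGP1), -0.55 to 0.31 (CFTR), -1.05 to 1.38 (DNAH5), -0.037 to 1.15 (HLA-DRA), -0.13 to 0.45 (JCHAIN), -0.021 to 1.62 (CSF1R), -2.58 to 1.05 (FOS), -2.51 to 0.67 (EGR1), -0.36 to 0.018 (CDK1), -0.55 to 0.018 (ESR1), -0.29 to 1.72 (CYBB), -0.36 to 0.044 (RPS6), -0.15 to 0.16 (COX1) and -0.15 to 0.23 (PDGFRA). List medians moved by more than the spread between libraries in 32 of 989 list and setting pairs. With 4 against 3 animals the median standard error of a gene was 0.327 on the log2 scale, and none of the 1019 genes with a log2 fold change over 1 in size passed the threshold in edgeR.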
